A study of Mus musculus with 27 samples.

Results

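The genes described here encode the voltage-gated sodium channels, the voltage-gated calcium channels and the HCN channels of the mouse. They were taken as every symbol of the RNA tables that starts with Scn, a number and the letter a or b, or with Cacna, Cacnb, Cacng or Hcn, which gave 44 genes of the 24293 symbols listed; 41 of them are described, and all counts of channel genes are over these 41. The study asked how primary microglia change after transduction with ND1, for which RNA was sequenced in 15 libraries of 5 groups with 3 libraries each. All cells came from wild-type (WT) C57BL/6 mouse cortex at postnatal day 1. Of the 5 groups, 2 were control microglia (day 2 or day 7), 2 were microglia transduced with ND1 (day 2 or day 7 after doxycycline), and the last was cortical neurons in culture, whose labels give no day. Transduced microglia received a lentivirus carrying ND1 and a lentivirus carrying M2rtta, the doxycycline-dependent activator, and were then kept in iN medium, a neuronal medium with B27, BDNF, GDNF and NT3, in which doxycycline was given 1 time. The medium of the control microglia is not stated, so an effect of ND1 cannot be told apart from one of the viruses, of doxycycline or of the medium. ND1 is not spelled out in the labels, and Neurod1, a transcription factor gene of neuronal differentiation, was listed at means of 1.09 and 1.56 FPKM in control microglia, 3288 in ND1 day 2, 33.9 in ND1 day 7 and 6.54 in neurons. For CpG methylation there was a single library of control cells and a single library titled iN, whose source and treatment labels give ND1-transduced microglia and which is called the ND1 library; neither carries a day.

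Voltage-gated sodium channels open on depolarization and carry the upstroke of the action potential; the pore is the alpha subunit, and beta subunits, which are also adhesion proteins, adjust its gating and its place in the membrane. Voltage-gated calcium channels turn depolarization into calcium entry: the alpha1 pore sets the current type, the beta and alpha2delta subunits bring the pore to the membrane, and most genes named gamma encode TARPs, which accompany AMPA-type glutamate receptors rather than calcium channels. HCN channels open on hyperpolarization and carry a mixed cation current that sets resting potential and rhythm. Neurons rely on all of these families, whereas microglia are not known for firing action potentials.

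The values are FPKM, fragments scaled to transcript length and library size, which allows levels of different genes to be compared. Differences were tested with limma on log2(FPKM + 1), and a gene was called higher or lower at an adjusted p under 0.05 with an absolute log2 change of at least 1. On this scale changes of weakly expressed genes are understated. Of the 41 genes, 31 passed the filter of 1 FPKM in at least 3 libraries and were tested among 13602 genes. The gene closest to the filter on its inner side was Cacng1, whose 3 highest libraries had at least 1.06 FPKM, and the closest outside was Scn9a, whose corresponding value was 0.419. Whether replicates are separate cultures is not stated, so p-values measure the spread between these libraries only.

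FPKM sums per library ran from 429013 to 739846 and were lower in ND1 day 7 and neuron libraries than in every control library. For low values, the most frequent ratio to control day 2 replicate 1 was taken as a measure of inverse depth. It was also smaller in ND1 day 7 and neuron libraries (lowest 0.73, against 1.13 as the highest of all libraries). Of 12 microglia markers 11 reached a mean of 1 FPKM in control day 2 and 12 in control day 7, and all 12 neuron markers did so in both ND1 groups and in neurons. This mean was also reached by 7 neuron markers in each control group. It was reached by 11 microglia markers in each ND1 group and by 4 in neurons. Summed microglia markers came to 496 to 680 FPKM in ND1 day 7 libraries, against 13734 to 14449 in control day 7 and 20.2 to 22.2 in neurons. Summed fibroblast and mural cell markers were 51.0 to 65.0 FPKM in control day 7, 49.3 to 54.1 in ND1 day 7 and 17.2 to 18.3 in neurons. The genes of this list did not move alike between control day 7 and ND1 day 7: means of Tagln were 29.1 and 13.2 FPKM and of Acta2 21.0 and 14.5, whereas those of Col1a1 were 3.30 and 9.64, of Rgs5 0.0879 and 3.33 and of Pdgfrb 0.317 and 2.53. Their part in the channel levels was not tested.

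By day 7, transduced cells had higher transcript levels of most channel genes than control microglia. Of the 31 tested genes 27 were higher in ND1 day 7 than in control day 7, where 25.7% of all tested genes were, and 0 were lower, where 24.5% of all tested genes were; at an unadjusted limma p under 0.05 they were 29 and 1. The median log2 change was 2.52 over the channel genes and 0.04 over all tested genes. Since RNA came from whole cultures, a difference in the share of expressing cells and one in RNA per cell cannot be told apart. On the log2(FPKM + 1) scale the largest rises were those of Cacng4 (log2 change 5.14, SE 0.15, limma adjusted p = 1.33e-13), a TARP gene, and of Cacnb3 (log2 change 5.11, SE 0.06, limma adjusted p = 1.48e-16), which encodes a calcium channel beta subunit. The order depends on the pseudocount: as a ratio of mean FPKM, Hcn4 was 231-fold higher, from a control mean of 0.0261, Cacng4 76.8-fold and Cacnb3 65.1-fold. Cacna1a, Cacna1d, Cacna2d2 and Cacnb2 were not called. Cacng1, counted among the 27, passed the filter only through its ND1 day 7 libraries. Neurons were higher than control day 7 in 28 of the 31 genes (28.1% of all tested genes) and lower in 0 (25.3%), though 30 were higher and 1, Cacna1d, lower at an unadjusted limma p under 0.05. With libraries scaled to 1 sum Cacna1a (1.15) and Cacng1 (1.27) were also called higher in neurons. These comparisons share the control day 7 libraries.

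**Figure D1:**
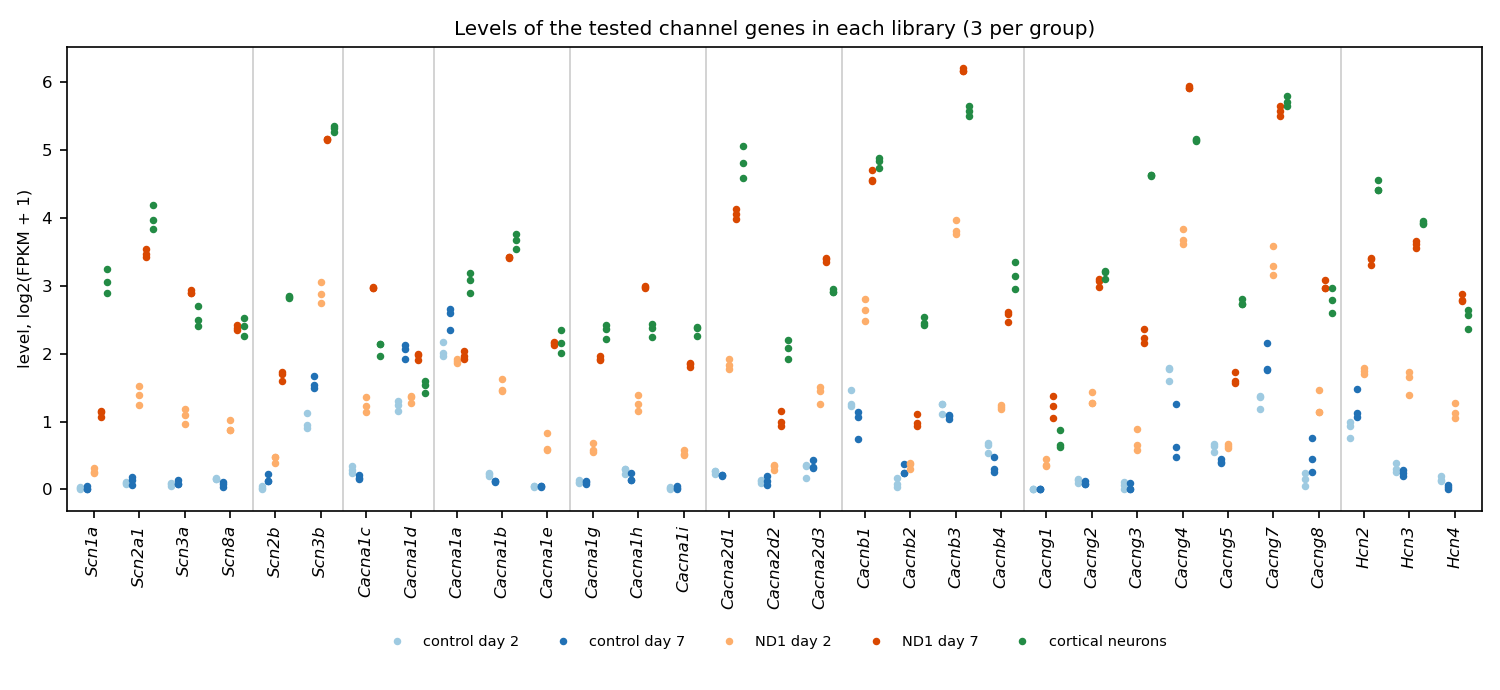
Levels of the 31 tested channel genes as log2(FPKM + 1) on the vertical axis, with 1 point per library and 3 libraries in each of 5 groups; grey lines separate the families. Most genes sit near 0 in control microglia, lie higher in ND1 day 2 and higher still in ND1 day 7, while Cacna1a and Cacna1d are present in control microglia and show no such steps.

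The promoters of these genes show how the start sites were methylated in control and ND1 cells. RefSeq (GRCm38.p6) gave a promoter of 300 bases, from 250 before to 50 after the start, for 32 of the 41 genes. Below are 4 of them, chosen to show the range: Cacna2d1 (chr5:15934441-15934740, plus strand) and Hcn4 (chr9:58822699-58822998, plus strand) were unmethylated and rose, Cacng8 (chr7:3393792-3394091, plus strand) was methylated at its annotated start and rose, and Scn10a (chr9:119718983-119719282, minus strand) was methylated and too low to be tested. Whether Cacng8 transcripts begin at that annotated start was not tested. Capitals mark every CG dinucleotide of the window, whether or not it was listed in the bisulfite libraries.
Cacna2d1: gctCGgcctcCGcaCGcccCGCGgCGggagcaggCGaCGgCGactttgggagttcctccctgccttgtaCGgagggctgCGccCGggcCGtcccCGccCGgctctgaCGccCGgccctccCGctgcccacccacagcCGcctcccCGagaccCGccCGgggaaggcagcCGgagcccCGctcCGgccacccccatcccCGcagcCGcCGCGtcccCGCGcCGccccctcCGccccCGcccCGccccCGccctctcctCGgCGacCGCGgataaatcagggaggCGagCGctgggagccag
Hcn4: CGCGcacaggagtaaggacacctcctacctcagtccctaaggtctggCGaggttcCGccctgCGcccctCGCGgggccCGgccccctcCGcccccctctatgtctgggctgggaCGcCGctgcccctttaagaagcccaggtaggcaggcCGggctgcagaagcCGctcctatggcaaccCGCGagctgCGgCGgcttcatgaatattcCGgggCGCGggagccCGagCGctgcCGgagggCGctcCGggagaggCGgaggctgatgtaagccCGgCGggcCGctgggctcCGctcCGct
Cacng8: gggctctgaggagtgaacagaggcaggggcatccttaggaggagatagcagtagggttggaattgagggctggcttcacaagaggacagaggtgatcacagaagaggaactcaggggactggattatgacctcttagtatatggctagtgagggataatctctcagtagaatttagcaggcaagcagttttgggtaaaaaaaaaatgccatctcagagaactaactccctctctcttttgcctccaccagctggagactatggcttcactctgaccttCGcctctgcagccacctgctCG
Scn10a: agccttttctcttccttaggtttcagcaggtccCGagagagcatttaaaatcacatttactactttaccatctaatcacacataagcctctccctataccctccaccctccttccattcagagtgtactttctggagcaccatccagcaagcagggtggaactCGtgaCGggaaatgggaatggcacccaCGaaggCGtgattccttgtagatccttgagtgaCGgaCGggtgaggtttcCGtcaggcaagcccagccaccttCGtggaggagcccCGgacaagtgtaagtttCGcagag
The Cacna2d1 window holds 42 CG and the Hcn4 window 31, against 2 in the Cacng8 window and 11 in that of Scn10a. Over the 32 promoters the median was 11 CG, and over 27025 promoters of the table it was 7.

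Within 500 bp of the start, mean CpG methylation was 1.27% in the control library and 1.47% in the ND1 library for Cacna2d1 (86 and 112 CpG positions). For Hcn4 the values were 1.31% and 1.82%, for Cacng8 85.6% and 86.2% and for Scn10a 84.3% and 84.4%. Each of the 4 start regions thus had nearly the same value in both libraries, whether its gene rose or not. Cacng8 transcripts measured 7.50, 6.82 and 6.78 FPKM in ND1 day 7 and 0.370, 0.191 and 0.691 in control day 7, groups that do not overlap. With 1 library per group there is no test of a methylation difference, and the read depth behind each value is unknown.

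Across the 32 promoters the median methylation was 12.5% in the control library and 14.1% in the ND1 library, and the median of the differences was 0.03 percentage points. Of the 32, 15 (46.9%) were under 10% in the control library, as were 47.8% of 22764 genes with enough positions. The 20 promoters of genes called higher in ND1 day 7 split into 11 under 10%, 6 from 10 to 40% and 3 at 40% or more (Cacna1c, Cacng8 and Scn2a1). Among the 9 promoters of genes too low to be tested, 2 were under 10% (Scn4b and Scn9a) and 7 at 40% or more. How all genes called higher, or all genes too low to be tested, split into these classes was not computed. Whether transcripts of Cacng8 or of the other genes begin at the starts used was not tested. These classes depend on the start used, since some RefSeq genes begin further out than their outermost promoter. At that outer end the control library had 9.71% for Cacng6 (41.7% at the promoter start) and 7.50% for Cacng2 (22.4%). In the other direction it had 42.5% for Scn8a (3.02%) and 53.8% for Cacnb3 (3.13%). Cacna1c was the 1 gene whose start lost at least 10 points, from 77.7% to 66.7% over 12 and 13 positions, and 0 genes gained as much; of all genes 0.716% lost and 0.821% gained 10 points. Within 1000 bp of the start, 0 channel genes lost as much. The inner start of Cacna1c at position 119108495 of chromosome 6 was at 0.755% in the control library and 1.86% in the ND1 library. Cacna1d likewise had a methylated outermost start (91.7% in the control library) and an unmethylated inner one (1.99%). Scn2a1 had 63.3% in the control library and 72.0% in the ND1 library at its outermost start, over 8 and 9 positions. Its inner start at position 65668686 of chromosome 2 had 20.1% and 18.4%.

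**Figure D2:**
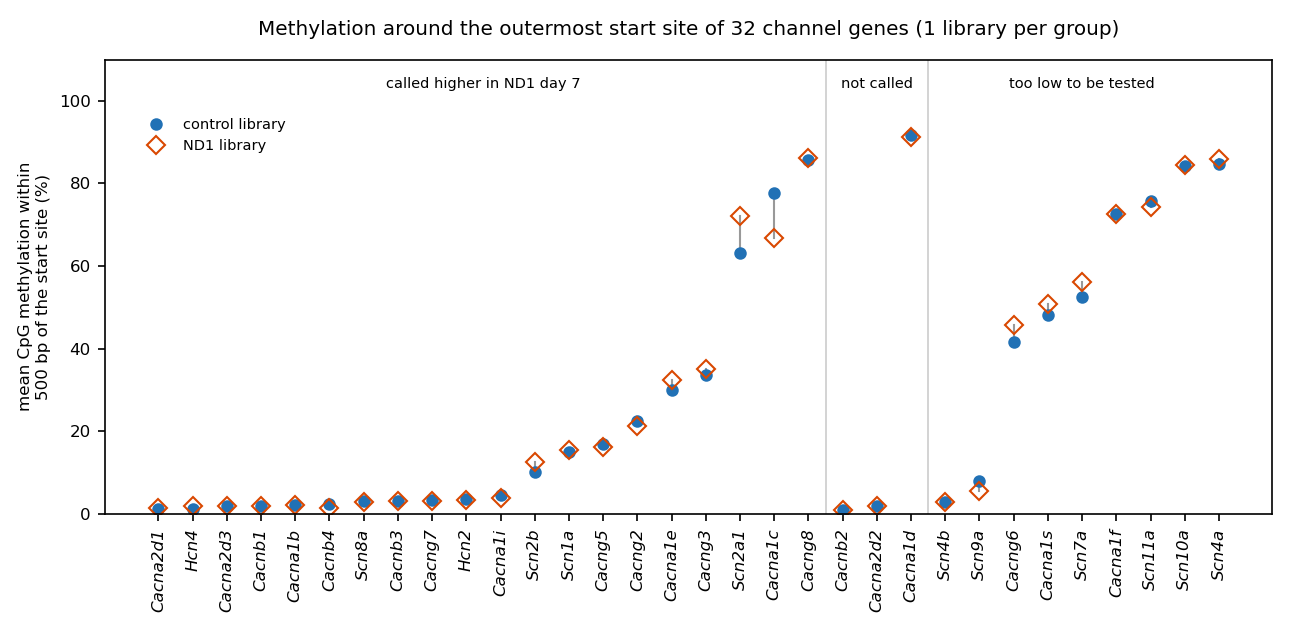
Mean CpG methylation in percent within 500 bp of the outermost start among the RefSeq promoters of each of 32 channel genes. Filled circles stand for the control library and open diamonds for the ND1 library. Genes are grouped by the call in ND1 day 7 against control day 7. Circle and diamond nearly coincide for most genes; Cacna1c, from 77.7% to 66.7%, is the widest pair.

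Motif counts were taken on both strands of the 32 promoters. The E-box CAGATG was present in 4 (12.5%, against 17.3% of all promoters) and the E-box CAGCTG in 10 (31.3%, against 16.1%). The latter were not confined to genes that rose. They were Cacna1b, Cacna1c, Cacna2d3, Cacng2, Cacng3 and Cacng8, called higher in ND1 day 7, with Cacnb2, not called, and Cacna1s, Scn7a and Scn11a, too low to be tested. The Cacng8 site lies in the window shown, across the annotated start. The left and right sites of the RE1 element, CAGCACC and GGACAGC, occurred in 0 (7.10% of all promoters) and 2 (6.25%, against 6.58%). Both together, with 2 bases between them and at most 2 mismatches, occurred in 0 (0.788%). CAGCTG reads the same on both strands, and the RE1 search contains the other 2 sequences. Rest, the repressor that binds RE1, was listed at means of 8.21 and 6.96 FPKM in control day 2 and day 7, 6.54 in ND1 day 2, 1.62 in ND1 day 7 and 0.556 in neurons.

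All 4 tested sodium channel pore genes, Scn1a, Scn2a1, Scn3a and Scn8a, rose in ND1 day 7. Scn2a1, the pore of early axons and axon initial segments, was at 0.0531, 0.0818 and 0.0726 FPKM in control day 2 and 0.0476, 0.106 and 0.135 in control day 7. It reached 1.87, 1.61 and 1.37 in ND1 day 2, 9.78, 10.6 and 10.0 in ND1 day 7 and 17.2, 14.6 and 13.3 in neurons. The 2 control groups overlap, and the other 3 groups lie above them and apart from each other (log2 change 3.35, SE 0.08, limma adjusted p = 3.3e-14 for ND1 day 7 against control day 7). Scn3a, the pore typical of the embryonic and newborn brain, averaged 6.50 ± 0.122 FPKM in ND1 day 7 and 4.81 ± 0.623 in neurons (SD, n = 3 each). Scn8a, the pore of nodes of Ranvier, averaged 4.21 ± 0.149 and 4.31 ± 0.483, with overlapping libraries.

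Scn1a, the pore prominent in fast-spiking interneurons, stood furthest below neurons among the 4. It was at 0.0159, 0.0301 and 0.00448 FPKM in control day 2, 0, 0.00794 and 0.0372 in control day 7 and 0.197, 0.251 and 0.177 in ND1 day 2. In ND1 day 7 it was at 1.22, 1.20 and 1.10, and in neurons at 8.50, 7.33 and 6.45. Every neuron library was thus over 5 times every ND1 day 7 library, and every ND1 day 7 library was above all controls. The change was 1.10 against control day 7 (SE 0.07, limma adjusted p = 1.13e-09) and -1.95 against neurons (SE 0.07, limma adjusted p = 1.06e-11). With quantile normalization the former was 0.69 and no longer called. Of the summed FPKM of the 9 pore genes described, Scn1a made up 5.27% in ND1 day 7 and 23.1% in neurons, Scn8a 18.9% and 13.4%, and Scn2a1 45.5% and 46.8%.

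Of the sodium channel beta subunit genes, Scn3b and Scn2b rose in ND1 day 7. Scn3b encodes a beta subunit that is abundant in forebrain neurons. Controls had 0.929, 1.19 and 0.873 FPKM at day 2 and 1.91, 1.81 and 2.18 at day 7, and ND1 cells 7.30, 6.37 and 5.69 at day 2. The ND1 day 7 libraries had 34.6, 34.7 and 34.3, just below the 39.8, 39.0 and 37.5 of neurons and far above all control libraries (log2 change 3.58, SE 0.08, limma adjusted p = 6.42e-15 against control day 7). Scn2b, which encodes the beta subunit linked to the pore by a disulfide bond, was at 0.00739, 0.0159 and 0.0333 FPKM in control day 2, and at 0.0927, 0.0957 and 0.173 in control day 7. It was at 0.387, 0.390 and 0.314 in ND1 day 2, 2.30, 2.25 and 2.04 in ND1 day 7 and 6.10, 6.19 and 6.08 in neurons. It rose against control day 7 by 1.51 (SE 0.04) and was lower than in neurons by 1.16 (SE 0.04, limma adjusted p = 3.07e-11).

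Among the L-type (Cav1) pores, Cacna1c, which couples synaptic activity to gene expression, rose and Cacna1d, which opens at more negative voltages, was not called. Cacna1c averaged 0.128 ± 0.0248 FPKM in control day 7, 6.84 ± 0.0434 in ND1 day 7 and 3.24 ± 0.305 in neurons (SD, n = 3 each). Its ND1 day 7 libraries lie above all neuron libraries (log2 change 0.89, SE 0.06, limma adjusted p = 1.6e-08), short of the log2 threshold of 1, which it passed at 1.06 with a pseudocount of 0.1. Cacna1d was at 1.24, 1.46 and 1.38 FPKM in control day 2, 2.80, 3.37 and 3.20 in control day 7 and 1.43, 1.57 and 1.60 in ND1 day 2. It was at 2.75, 2.96 and 3.00 in ND1 day 7 and 2.04, 1.90 and 1.67 in neurons. The day 7 libraries of both treatments overlap and are higher than those of day 2 and of neurons (log2 change -0.08, SE 0.06, limma adjusted p = 0.267 for ND1 day 7 against control day 7). Scaling each library to 1 sum turned that value to 0.47, under which the median of all tested genes moved from 0.04 to 0.62. Cacna1c overlaps Dcp1b and Cacna1d overlaps Dcp1a, genes at 3.03 to 7.04 FPKM in group means, and whether strand was used in counting is not given.

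In the Cav2 family, whose pores trigger transmitter release, control microglia expressed Cacna1a and little else. Cacna1a, the P/Q-type pore, was at 3.49, 3.03 and 2.92 FPKM in control day 2, 4.09, 5.29 and 5.04 in control day 7 and 2.64, 2.70 and 2.78 in ND1 day 2. It was at 3.12, 2.89 and 2.81 in ND1 day 7 and 7.49, 8.12 and 6.45 in neurons. In FPKM as listed, ND1 day 7 cells thus had less than control day 7 cells and less than neurons, without overlap. The former difference of -0.56 (SE 0.09, limma adjusted p = 3.06e-05) was not called, and the latter of -1.08 (SE 0.09, limma adjusted p = 6.63e-08) was. The former depends on scaling. FPKM sums were 447561 to 461085 in ND1 day 7 and 700518 to 739846 in control day 7. With libraries scaled to 1 sum, the Cacna1a libraries of these groups overlap. Cacna1b, the N-type pore, was at 0.169, 0.181 and 0.149 in control day 2, 0.0888, 0.0839 and 0.0924 in control day 7 and 2.07, 1.76 and 1.73 in ND1 day 2. It rose to 9.59, 9.69 and 9.72 in ND1 day 7 (log2 change 3.29, SE 0.06, limma adjusted p = 9.73e-16), with neurons at 12.5, 11.7 and 10.7. Its 3 day 7 libraries lie closely together, above every control and below every neuron library. Cacna1e, the R-type pore, averaged 3.45 ± 0.0752 FPKM in ND1 day 7 and 3.52 ± 0.538 in neurons. The main Cav2 transcript was therefore Cacna1a in control day 7 (97.5% of the family's FPKM) and Cacna1b in ND1 day 7 (60.2%) and neurons (51.8%).

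All 3 T-type (Cav3) pore genes, which carry low-threshold calcium currents, rose. Their summed FPKM was 0.227 in control day 7, 12.3 in ND1 day 7 and 12.3 in neurons. Cacna1h averaged 6.89 ± 0.0572 FPKM in ND1 day 7 and 4.13 ± 0.354 in neurons, Cacna1g 2.82 ± 0.0811 and 4.06 ± 0.373, and Cacna1i 2.58 ± 0.0869 and 4.07 ± 0.250 (SD, n = 3 each). In neurons the 3 genes had nearly equal shares (33.7%, 33.1% and 33.2%), and in ND1 day 7 Cacna1h held 56.1%. None of the 3 differences from neurons passed the log2 threshold.

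Of the alpha2delta genes, Cacna2d1, which encodes the subunit that binds gabapentin, rose from 0.164, 0.156 and 0.142 FPKM in control day 7 to 14.9, 16.5 and 15.7 in ND1 day 7 (log2 change 3.85, SE 0.09, limma adjusted p = 1.28e-14). Control day 2 libraries had 0.210, 0.207 and 0.166, ND1 day 2 libraries 2.79, 2.57 and 2.42 and neurons 32.2, 26.9 and 23.2. The groups of ND1 day 2, ND1 day 7 and neurons ascend without overlap. Cacna2d3, a second alpha2delta gene, averaged 9.44 ± 0.169 FPKM in ND1 day 7 and 6.58 ± 0.131 in neurons, and was thus above neurons in all 3 libraries (log2 change 0.46, not called). Cacna2d2 was at 0.0727, 0.0981 and 0.0887 in control day 2, 0.0468, 0.151 and 0.0907 in control day 7 and 0.277, 0.271 and 0.223 in ND1 day 2. It was at 0.902, 0.998 and 1.23 in ND1 day 7 and 3.24, 3.58 and 2.81 in neurons, without overlap between ND1 day 7 and any other group. Its change of 0.90 against control day 7 (SE 0.07) was short of the threshold, which it passed at 1.54 with libraries scaled to 1 sum and at 2.57 with a pseudocount of 0.1. It was called lower than in neurons (log2 change -1.04, SE 0.07, limma adjusted p = 9.35e-09); without ND1 day 7 replicate 1 or without neuron replicate 2 that value was -0.99 or -0.98 and no longer called.

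Calcium channel beta subunits, which carry the pore to the membrane, were dominated by Cacnb3 in ND1 cells. Cacnb3 was at 1.40, 1.40 and 1.16 FPKM in control day 2, 1.13, 1.05 and 1.12 in control day 7 and 14.7, 12.6 and 12.9 in ND1 day 2. It reached 72.9, 70.8 and 70.8 in ND1 day 7, above the 44.1, 49.3 and 46.6 of neurons in every library (log2 change 0.61, SE 0.06, limma adjusted p = 5.11e-07, not called). Cacnb1, the beta subunit gene also used in skeletal muscle, had 1.75, 1.34 and 1.39 in control day 2, 0.670, 1.19 and 1.09 in control day 7 and 6.02, 5.24 and 4.57 in ND1 day 2. It had 25.1, 22.5 and 22.4 in ND1 day 7, below all neuron libraries at 25.6, 28.6 and 27.5 and above all others. Cacnb1 overlaps Rpl19 by 1032 bp, a ribosomal protein gene at 848 to 2140 FPKM in group means, so the FPKM of Cacnb1 is uncertain. Means of Rpl19 were 2140 FPKM in control day 7 and 1043 in ND1 day 7. The part of the overlap in the Cacnb1 levels was not tested.

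Cacnb4, the beta subunit mutated in the lethargic mouse, averaged 4.91 ± 0.311 FPKM in ND1 day 7 and 7.94 ± 1.26 in neurons (SD, n = 3 each). Cacnb2, the beta subunit known from the heart, was at 0.122, 0.0577 and 0.0301 in control day 2, 0.184, 0.178 and 0.300 in control day 7 and 0.306, 0.227 and 0.302 in ND1 day 2. It was at 1.16, 0.971 and 0.909 in ND1 day 7 and 4.84, 4.49 and 4.35 in neurons, where every library was over 3 times the highest ND1 library. Its difference from neurons was -1.47 (SE 0.06, limma adjusted p = 5.48e-11) and that from control day 7 0.72, not called, though it was called at 1.30 with libraries scaled to 1 sum and at 1.81 with a pseudocount of 0.1.

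Summed over the gamma and TARP genes, the level was 4.43 FPKM in control day 7, 128 in ND1 day 7 and 130 in neurons, in the latter 2 groups the highest sum of any calcium channel family. All 7 tested genes were called higher in ND1 day 7 than in control day 7, though with quantile normalization Cacng1 (0.86) and Cacng5 (0.68) were not. Cacng1 passed the filter only through its ND1 day 7 libraries, so its call there adds no separate evidence. Cacng4, a TARP of the developing brain, was at 2.02, 2.45 and 2.42 FPKM in control day 2, 0.398, 1.40 and 0.540 in control day 7 and 13.3, 11.8 and 11.2 in ND1 day 2. It was at 59.4, 59.5 and 60.6 in ND1 day 7, above the 34.7, 34.1 and 34.5 of neurons (log2 change 0.78, SE 0.15, limma adjusted p = 0.000261, not called). Cacng7, a type II TARP gene, was at 1.60, 1.56 and 1.28 in control day 2, 2.39, 2.42 and 3.47 in control day 7 and 11.0, 7.91 and 8.83 in ND1 day 2. It was at 49.1, 44.2 and 46.5 in ND1 day 7 and 49.0, 54.8 and 51.3 in neurons, ranges that just overlap.

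Cacng3, a TARP of the cerebral cortex, had the widest gap between transduced cells and neurons on the log2(FPKM + 1) scale; as a ratio of mean FPKM, ND1 day 7 had 15.9% of the neuron level of Cacng3 and 15.8% of that of Scn1a. It was at 0.0487, 0.0788 and 0 FPKM in control day 2, 0.0705, 0 and 0 in control day 7 and 0.858, 0.569 and 0.494 in ND1 day 2. It rose to 4.16, 3.48 and 3.69 in ND1 day 7 (log2 change 2.22, SE 0.07, limma adjusted p = 9.8e-13), and neurons had 23.7, 23.9 and 23.6 (log2 change -2.37, SE 0.07, limma adjusted p = 4.06e-12). All neuron libraries were over 5 times all ND1 day 7 libraries. Cacng2, which encodes stargazin, averaged 7.30 ± 0.345 FPKM in ND1 day 7 and 8.03 ± 0.410 in neurons, and Cacng8 7.03 ± 0.403 and 5.93 ± 0.894 (SD, n = 3 each). Cacng5 had 0.587, 0.560 and 0.459 in control day 2, 0.322, 0.361 and 0.313 in control day 7 and 0.565, 0.593 and 0.519 in ND1 day 2. It had 2.02, 2.32 and 1.95 in ND1 day 7 and 6.02, 5.64 and 5.63 in neurons, with no overlap between those 2 groups (log2 change -1.13, SE 0.05, limma adjusted p = 1.67e-10 for ND1 day 7 against neurons). Cacng1, the gamma subunit gene of skeletal muscle, was listed at 0 in all 6 control libraries, so it has no fold; it was at 0.276, 0.360 and 0.280 in ND1 day 2, 1.58, 1.34 and 1.06 in ND1 day 7 and 0.568, 0.548 and 0.834 in neurons. Of 7 skeletal muscle markers, 0 reached a mean of 1 FPKM in ND1 day 7.

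Hcn2, Hcn3 and Hcn4 rose in ND1 day 7. Hcn2, an HCN gene widely expressed in the brain, was at 0.915, 0.998 and 0.690 FPKM in control day 2, 1.18, 1.80 and 1.10 in control day 7 and 2.47, 2.24 and 2.35 in ND1 day 2. It was at 9.49, 9.57 and 8.84 in ND1 day 7 and 20.4, 22.5 and 20.3 in neurons. The ND1 day 7 libraries are above all controls and under those of neurons (log2 change -1.10, SE 0.10, limma adjusted p = 1.64e-07). Hcn3 was at 0.305, 0.227 and 0.190 in control day 2, 0.224, 0.189 and 0.148 in control day 7 and 2.31, 2.15 and 1.62 in ND1 day 2. It was at 11.6, 11.3 and 10.8 in ND1 day 7 (log2 change 3.36, SE 0.07, limma adjusted p = 7.72e-15) and 14.1, 14.6 and 14.2 in neurons. Hcn4, the pacemaker channel of the heart and thalamus, averaged 6.03 ± 0.263 FPKM in ND1 day 7 and 4.77 ± 0.571 in neurons, with all ND1 day 7 libraries higher (log2 change 0.29, not called).

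**Figure D3:**
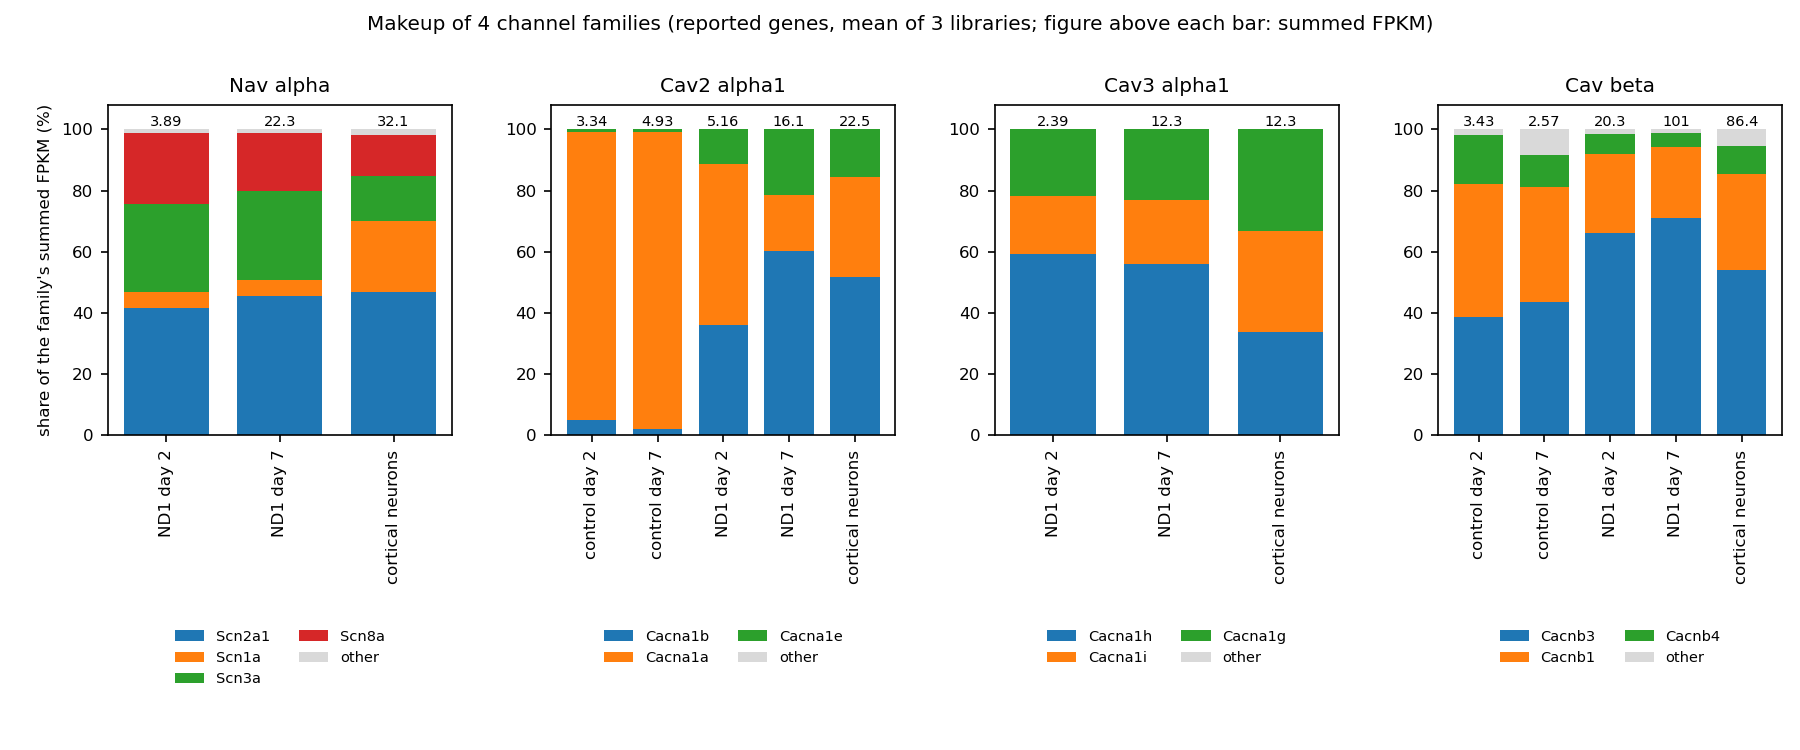
Share of each gene in the summed FPKM of its family, in percent, as the mean of 3 libraries per group, for the sodium channel pores described, Cav2 pores, Cav3 pores and calcium channel beta subunits; the number above each bar is the summed FPKM, and groups with a sum under 0.4 are left out. Cacna1a fills the control bars of Cav2, Scn1a is narrower in ND1 day 7 (5.27%) than in neurons (23.1%), and Cacnb3 is wider in ND1 day 7 (71.0%) than in neurons (54.0%).

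Set directly against neurons, ND1 day 7 cells were lower in 8 of the 31 genes, where 6.24% of all tested genes were, and higher in 0, where 7.29% were. At an unadjusted limma p under 0.05, 9 genes were higher and 16 lower. The median log2 difference was -0.22 over the channel genes and 0.06 over all tested genes. The 8 genes were 2 of the sodium channel (Scn1a and Scn2b), 1 of the HCN (Hcn2) and 5 of the calcium channel and TARP families (Cacna1a, Cacna2d2, Cacnb2, Cacng3 and Cacng5). On the other side, Cacna1c, Cacng4, Cacna1h and Cacnb3 were higher by 0.89, 0.78, 0.62 and 0.61, each with an adjusted limma p under 0.05 and short of the fold threshold. Scn8a (-0.02, SE 0.06) and Cacna1e (-0.01, SE 0.08) were closest to neurons. Markers of inhibitory neurons summed to 597 to 628 FPKM in ND1 day 7 and 2102 to 2541 in neurons, and those of excitatory neurons to 444 to 461 and 211 to 222. The part of this difference in the channel levels was not tested.

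**Figure D4:**
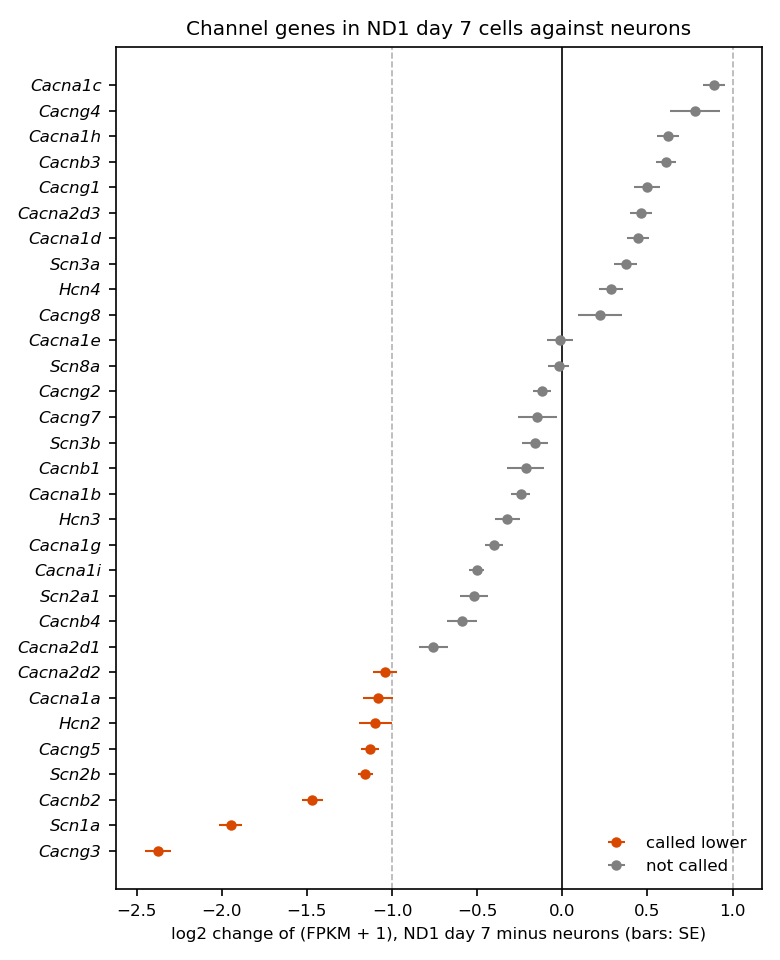
Log2 difference of (FPKM + 1) between ND1 day 7 and neurons for the 31 tested genes, with bars for the standard error; dashed lines mark the threshold of 1 and orange points the called genes. The 8 called genes all lie on the lower side, from Cacna2d2 at -1.04 to Cacng3 at -2.37.

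At day 2 some of these genes had already risen. Of the 31, 12 were higher in ND1 day 2 than in control day 2 (9.09% of all tested genes) and 0 lower (0.618%), with 28 higher and 0 lower at an unadjusted limma p under 0.05. The largest changes were those of Cacnb3 (log2 change 2.63, SE 0.06, limma adjusted p = 4.51e-13), Cacng7 (2.04), Cacng4 (1.99) and Scn3b (1.90). The count depends on the scale: it was 27 with a pseudocount of 0.1 FPKM and 5 with quantile normalization. The ND1 difference was larger at day 7 than at day 2 for 25 genes (interaction, 20.5% of all tested genes) and smaller for 0 (20.8%), with 29 larger and 1 smaller at an unadjusted limma p under 0.05. Within transduced cells 24 genes rose between the days (22.6% of all tested genes) and 0 fell (21.1%), with 30 positive and 0 negative at an unadjusted limma p under 0.05.

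Among the channel genes with high ND1 day 7 levels, day 2 rises were a nearly fixed share of day 7 rises. Shares of the other tested genes were not computed. For the 17 genes at 5 FPKM or more in ND1 day 7 and at least 5 times control day 2, the rise over control day 2 in ND1 day 2 was 15.4% (Scn2a1) to 19.7% (Cacng2) of the rise in ND1 day 7, with a median of 17.2%. The median of the 17 genes was 19.1%, 16.3% and 15.5% in the 3 ND1 day 2 libraries. Among 663 other neuron-high genes the median was 17.1%, with 14.95% and 18.9% as the 5th and 95th percentiles. Of the 17 genes, Cacng2 lay above this range and no gene below it. After subtraction of 17.1% of the ND1 day 7 mean from each ND1 day 2 library and rescaling, 0 of the 31 genes were called higher (0.727% of 13618 genes) or lower (0.264%), and 2 had an unadjusted limma p under 0.05. These were Cacng5, at a log2 change of -0.30 (limma adjusted p = 0.000612), and Cacng2, at 0.26 (limma adjusted p = 0.0186), the lowest and the highest of the 31 values.

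**Figure D5:**
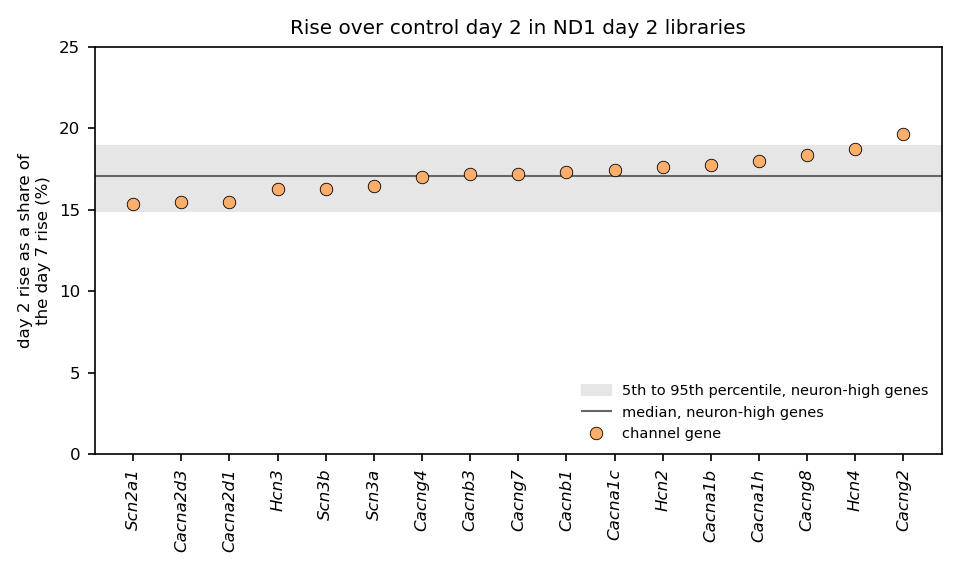
Rise over control day 2 in ND1 day 2 as a percent of the rise in ND1 day 7, for 17 channel genes (points, means of 3 libraries); the line and band give the median and the 5th to 95th percentiles of 663 other neuron-high genes. Points run from 15.4% to 19.7% around the line at 17.1%.

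Culture time alone called 0 of the 31 genes higher (3.9% of all tested genes) and 0 lower (3.79%) in control day 7 against control day 2, with 8 higher and 5 lower at an unadjusted limma p under 0.05. The widest log2 differences among these genes were those of Cacna1d at 0.80 (SE 0.06, limma adjusted p = 1.03e-07) and Cacng4 at -0.93 (SE 0.15). Cacng4 was uneven in control day 7, and without replicate 2, the library at 1.40 FPKM, its change was -1.16 and called. Summed astrocyte markers were 19.7 to 21.3 FPKM in control day 2 and 75.0 to 79.6 in control day 7, fibroblast and mural markers 2.66 to 4.18 and 51.0 to 65.0, and microglia markers 7665 to 7883 and 13734 to 14449. Their part in these changes was not tested.

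Genes of proteins that bind or anchor these channels were read beside them. Of the 29 tested partner genes described, 25 were higher and 1 lower in ND1 day 7 than in control day 7 (25.7% and 24.5% of all tested genes). In ND1 day 2 against control day 2, 11 were higher and 0 lower (9.09% and 0.618%), and in ND1 day 7 against neurons 1 was higher and 8 lower (7.29% and 6.24%). Among these the largest rises were those of Snap25 (5.12), also in the neuron marker list, of the active zone gene Rims1 (4.34) and of the syntaxin gene Stx1a (4.32). Rrad, a small GTPase gene that restrains L-type channels, fell by 1.87. Among 36 other calcium and cation transport genes 13 were higher and 13 lower in ND1 day 7 than in control day 7, again beside 25.7% and 24.5% of all tested genes. The rises were led by the calcium pump gene Atp2b2 (3.73), the channel gene Trpc4 (3.38) and the exchanger gene Slc8a2 (3.03), and the falls by the mitochondrial exchanger gene Slc8b1 (-3.80), the proton channel gene Hvcn1 (-3.59) and the lysosomal channel gene Tpcn2 (-3.06).

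Most of the 10 genes that were too low to be tested are known mainly from other tissues. Scn9a, Scn10a and Scn11a, the pores of peripheral sensory neurons, reached at most 0.574, 0.0167 and 0.0634 FPKM in any library. Scn9a was highest in neurons, at 0.574, 0.419 and 0.447 FPKM, with 0.237, 0.239 and 0.239 in ND1 day 7. Scn4a of skeletal muscle, the sodium sensor gene Scn7a and the beta subunit gene Scn4b stayed at or under 0.0585. Cacna1s, the skeletal muscle pore, was highest in neurons at 0.194, 0.171 and 0.220, and Cacna1f, the pore of photoreceptors, in control day 2 at 0.154, 0.189 and 0.210, with 0, 0 and 0.0247 in ND1 day 7. Cacna2d4 and Cacng6 reached at most 0.0720 and 0.464 FPKM.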

How the data were processed

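RNA was measured in 15 mouse libraries and CpG methylation in 2. The authors deposited gene-level FPKM, made per the submitters' processing notes with TopHat, Bowtie2, Cufflinks and Cuffdiff on mm10, with neither version nor strand setting given in the sources used here. The bisulfite tables hold the methylated fraction per CpG position as deposited, from post-bisulfite adaptor tagging per the labels' protocols; the tables carry no read depth, and their aligner is not given in the sources used here. Immunoprecipitation libraries were not used here.

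The members and gene lists were chosen with earlier results of these data known. Of the 44 members, 3 are not reported here, nor is 1 partner gene; they stayed in the fit across all genes and are left out of the counts, sums, shares and figures. Every gene reaching 1 FPKM in 3 or more libraries was fitted with limma 3.58.1 (R 4.3.3) on log2(FPKM + 1), with 5 group means, an intensity trend, no replicate block and Benjamini-Hochberg adjustment over 13602 genes. Calls needed an adjusted p under 0.05 and an absolute log2 change of at least 1. The fit was tested on simulated data. Values per library were printed for members with a group mean of at least 10 FPKM, those called against neurons and those highest in control microglia at 1 FPKM or more; those of Cacng8, Cacng1, Scn9a, Cacna1s and Cacna1f were added after their values were seen. Of the partner lists, the 3 largest called changes per direction were named. Neuron-high genes were those with means of 10 FPKM or more in neurons and ND1 day 7 and, in neurons, 20 times control day 7. Methylation was the mean fraction, given in percent, over at least 5 positions within 500 bp of the outermost start among a gene's RefSeq promoters. For some genes the RefSeq gene itself begins further out. All 41 members described matched the RefSeq gene table (GRCm38.p6), 1 through a synonym. Alternatives were another pseudocount, other filters, 2 other scalings, a replicate block, fits of the compared groups alone, each library left out, and other methylation windows.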

Additional observations from a re-analysis of the deposited data

Results flagged for a closer look

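The difference between ND1 and control cells was not the same at day 7 as at day 2 for 25 of the channel genes, by the interaction term of the limma fit on log2(FPKM + 1), where 20.5% of all tested genes were called in this direction. For all 25 the day 7 difference was the larger one. Cacng8 was no longer called with a pseudocount of 0.1 (1.01, limma adjusted p = 0.0534), nor Scn2b with quantile normalization (0.94). The sodium channel values were Scn2b 1.09, Scn8a 1.55, Scn3b 1.69, Scn3a 1.80 and Scn2a1 2.06. Calcium channel pores gave Cacna1i 1.29, Cacna1g 1.34, Cacna1e 1.48, Cacna1h 1.81, Cacna1c 1.84 and Cacna1b 2.00. Accessory alpha2delta and beta subunits gave Cacnb4 1.63, Cacna2d3 1.91, Cacna2d1 2.26, Cacnb1 2.30 and Cacnb3 2.48. TARP genes gave Cacng5 1.19, Cacng8 1.42, Cacng3 1.57, Cacng7 1.63, Cacng2 1.76 and Cacng4 3.15. HCN genes gave Hcn2 1.29, Hcn4 1.78 and Hcn3 2.08.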

How the results depend on the processing

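Of the gene-level values recomputed under the alternatives, 1921 kept their direction and their side of the thresholds, 12 newly passed, 18 no longer passed and 12 changed sign. The replicate block changed no call: with it 27 members were higher in ND1 day 7 and 12 in ND1 day 2. Of 30 pairs of libraries with equal replicate numbers in different groups, 2 had a correlation of deviations over 0.1 (range -0.226 to 0.161), so the numbers were not taken to pair libraries. Most sensitive was the day 2 count of 12, which became 27 with a pseudocount of 0.1, 5 with quantile normalization and 0 after removal of the ND1 day 7 share, as this subtraction is built to do for genes in that proportion. That removal turned Cacna2d1 to -0.19, Cacna2d3 to -0.11, Cacnb1 to -0.0163, Cacnb3 to -0.0539, Cacng4 to -0.0812, Cacng7 to -0.22, Hcn3 to -0.0038, Scn2a1 to -0.0207 and Scn3b to -0.30 on the log2 scale. Sum scaling turned Cacna1d to 0.47 at day 7, and leaving out 1 library gave -0.0951 to 0.0753 for Cacna1e and -0.0898 to 0.0422 for Scn8a against neurons, positive without neuron replicate 1. Control day 7 against day 2 gave 2 higher and 1 lower with the pseudocount of 0.1, and 1 lower with sum scaling. ND1 day 7 against neurons gave 1 higher (Cacna1c, 1.06) with the pseudocount of 0.1. Leaving out 1 library gave 11 to 15 higher at day 2 (Cacng8 was 0.99 and not called without ND1 day 2 replicate 1), 26 to 27 higher at day 7, 25 to 25 for the interaction, 24 to 25 between ND1 days, 28 to 28 in neurons, 7 to 8 lower than neurons, and 0 to 1 lower in control day 7 than day 2; the median day 2 share was 15.7% to 17.8%. Median promoter methylation in the control library was 18.0% within 1000 bp, 5.68% within 250 bp and 9.02% with at least 10 positions, against 12.5%. The cause of these shifts was not tested. Day 7 calls lost with quantile normalization were Cacng1 (0.86), Cacng5 (0.68) and Scn1a (0.69), and Cacna2d2 (1.54) and Cacnb2 (1.30) were gained with sum scaling (2.57 and 1.81 with the pseudocount of 0.1). In neurons against control day 7, sum scaling added Cacna1a (1.15) and Cacng1 (1.27; 2.89 with the pseudocount of 0.1). Sum scaling moved the median of all genes from 0.04 to 0.62 in ND1 day 7 against control day 7. The corresponding medians in neurons against control day 7 were 0.06 and 0.64. FPKM and methylated fractions carry no counts, so counting error is unknown.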
